A study of Mus musculus with 2 samples.

Results

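The 35 genes described here take up and burn glucose, or take part in the response of a cell to low oxygen. They were chosen by name and not by a rule on measured values, though with earlier results of these data known. All 35 were found among the 55416 genes listed for both libraries. The glycolysis side has 20 members, which are 2 glucose transporters, 14 glycolytic enzymes and 4 genes that set flux or export lactate. The HIF side has 15 members, which are 3 genes of oxygen sensing and 12 other known targets of hypoxia-inducible factors (HIF). Each of the 35 had at least 20 counts in the kept cells of each library. Together they took 0.838% of all counts in lung and 0.425% in muscle.

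As background, glycolysis splits glucose to pyruvate, and cells that lack oxygen or divide quickly turn much of that pyruvate into lactate and export it. HIF-1 alpha, the protein made from Hif1a, is marked for destruction by oxygen-dependent prolyl hydroxylases of the Egln family, and it switches on many glycolytic genes when oxygen is short. Inflammatory signals can also raise it in myeloid cells, and neutrophils are known to depend on glycolysis for most of their energy. HIF-1 alpha is controlled largely through the stability of the protein, so the RNA level of Hif1a does not measure HIF activity.

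The data were 2 single-cell libraries of mouse cells, 1 from gastrocnemius, a calf muscle, and 1 from lung, both enriched with CD45 magnetic beads (CD45 marks leukocytes) after Liberase TL and DNase I digestion. The labels name the animals TB mice and give CAC mouse model as their genotype. What these short names stand for was not assumed, and the age, the strain, any treatment and the number of mice pooled are not given in the sources used here. The series' design text speaks of cachexia in a tumour-bearing model and of sequencing of muscle RNA after 3 antibodies (IgG, anti-PD-L1, anti-CD8a), and the antibody-treated muscles were not analysed here. There was no sample without tumour, so the values describe cell types within these libraries and carry no comparison with healthy tissue.

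After filtering, 2143 muscle cells (8704053 counts, median 3063 per cell) and 7638 lung cells (28319287 counts, median 2130) were kept. Before filtering, 59.5% of muscle barcodes and 3.22% of lung barcodes exceeded the limit of 10% mitochondrial counts, and the libraries shared 64 barcodes, 21 of them kept in both. The CD45 label held for lung, where 6600 kept cells fell into leukocyte-like classes and 450 (5.89%) into other named classes. It did not hold for muscle, where 308 kept cells were leukocyte-like and 1774 (82.8%) were endothelial-like, stromal, glial or satellite-like. In those muscle classes Ptprc, which encodes CD45, was between 0 and 3.23 CPM (its UMI counts as parts of 1e+06 UMI counts), against 411 to 1086 in the muscle leukocyte-like classes. Myofibre genes summed to 225 to 1031 CPM in every named muscle class, with all 10 of them detected, and to 0 to 47.3 CPM in the lung classes. Clusters rich in Malat1, an RNA held in the nucleus, with a share more than 2-fold that of the other cells of their class, held 643 muscle and 481 lung cells.

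All levels below are counts of a gene summed over the cells of a class and divided by all counts of that class (in CPM), with exact Poisson 95% intervals in square brackets. A level is compared within a gene across cell types, not between genes. With 1 library per tissue there is no replicate and no test. A gene is called higher or lower where 2 summed levels differ by at least 2-fold with at least 20 counts over both sides, and intervals cover counting error only. Beside the first count of members called in a comparison stands the share of all measured genes called in the same direction. A side with no count was read at a floor, as given under the processing. In classes with few counts, a weakly expressed gene with no count can therefore not be called lower, but it stays among the measured genes. This holds down the share called lower in such classes. The members were not matched to the other genes by level.

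To show what the members share in sequence, the 3 members of each side with the highest lung level among those holding the motif described next before their start are given (Gapdh, with its 1 match after the start, is not). For these 6 the 250 bases before the RefSeq transcription start (GRCm38.p6) are printed 5′ to 3′ in the direction of transcription. Capitals mark ACGTG, a form of the core of the HIF-binding element, on either strand (CACGT is the same letters read on the other strand, and CACGTG counts on both). The form GCGTG was not searched and is not marked or counted. The windows are Hif1a at chr12:73907617-73907866 on the plus strand, Egln3 at chr12:54203875-54204124 on the minus strand, Ero1a at chr14:45318573-45318822 on the minus strand, Ldha at chr7:46845554-46845803 on the plus strand, Aldoa at chr7:126799179-126799428 on the minus strand and Pkm at chr9:59656977-59657226 on the plus strand.
Hif1a: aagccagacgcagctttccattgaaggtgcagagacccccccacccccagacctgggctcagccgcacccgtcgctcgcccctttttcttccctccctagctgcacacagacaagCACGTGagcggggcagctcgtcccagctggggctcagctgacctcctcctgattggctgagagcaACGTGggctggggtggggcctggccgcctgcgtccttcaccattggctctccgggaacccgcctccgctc
Egln3: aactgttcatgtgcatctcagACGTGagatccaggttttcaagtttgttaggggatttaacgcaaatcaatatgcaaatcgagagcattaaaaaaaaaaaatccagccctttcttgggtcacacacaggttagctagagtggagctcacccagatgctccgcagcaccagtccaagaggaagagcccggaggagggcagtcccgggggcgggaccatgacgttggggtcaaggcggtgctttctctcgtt
Ero1a: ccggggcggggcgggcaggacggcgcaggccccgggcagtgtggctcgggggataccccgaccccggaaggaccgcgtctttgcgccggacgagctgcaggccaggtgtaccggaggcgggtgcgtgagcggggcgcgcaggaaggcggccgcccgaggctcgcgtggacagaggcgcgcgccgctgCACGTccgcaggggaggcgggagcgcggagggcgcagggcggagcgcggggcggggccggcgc
Ldha: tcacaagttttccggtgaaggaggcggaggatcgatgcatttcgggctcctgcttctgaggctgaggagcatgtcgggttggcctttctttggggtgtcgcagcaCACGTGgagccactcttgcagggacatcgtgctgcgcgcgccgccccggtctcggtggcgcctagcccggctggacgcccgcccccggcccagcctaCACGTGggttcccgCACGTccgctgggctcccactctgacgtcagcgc
Aldoa: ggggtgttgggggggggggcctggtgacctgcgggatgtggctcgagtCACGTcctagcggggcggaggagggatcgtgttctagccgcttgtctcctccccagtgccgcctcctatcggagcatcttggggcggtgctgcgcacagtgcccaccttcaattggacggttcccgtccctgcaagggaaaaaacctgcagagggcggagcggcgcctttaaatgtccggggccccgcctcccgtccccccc
Pkm: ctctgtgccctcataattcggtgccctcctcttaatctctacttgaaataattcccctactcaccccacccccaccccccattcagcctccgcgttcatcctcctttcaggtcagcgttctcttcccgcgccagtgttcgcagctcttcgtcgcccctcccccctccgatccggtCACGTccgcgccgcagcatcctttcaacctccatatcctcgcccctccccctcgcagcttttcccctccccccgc

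The Ldha window held 5 matches, the Hif1a window 3, and the other windows 1 each, having been picked for holding at least 1. Over windows from 250 bases before to 50 after the start, 26 of 46 windows of the members (56.5%) held at least 1 match, against 19.6% of 32851 windows of all RefSeq genes and 24.8% of 13921 windows of genes measured in the lung classes. On the HIF side 12 of 17 windows held a match (70.6%), and on the glycolysis side 14 of 29 (48.3%). Slc2a3, Ndrg1 and Bnip3l had no window in the table. A match is a description of the letters and no measurement of binding. The members were listed as known HIF targets or as glycolysis genes, many of which HIF switches on. A higher share is therefore built into the list and is no finding of these data. The windows of other genes were not matched for base composition.

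In lung the summed members were highest in neutrophil-like, macrophage-like and monocyte-like cells. The 20 glycolysis members summed to 7398 CPM in neutrophil-like, 7253 in macrophage-like, 6656 in monocyte-like and 6653 in alveolar macrophage-like cells. The same sum was 6054 in epithelial-like, 3071 in T-like, 1485 in B-like and 982 in plasma-like cells. The 15 HIF-side members spread more widely among the myeloid classes, with 3460 CPM in neutrophil-like and 3034 in monocyte-like cells, 1916 in macrophage-like cells and 1242 in alveolar macrophage-like cells. The monocyte-like class mixes 2 clusters, with HIF-side sums of 1762 CPM in cluster 4 (379 cells) and 5441 in the Malat1-rich cluster 26 (131 cells). Monocyte-like levels below are of both clusters together. Alveolar macrophage-like cells thus had a glycolysis sum near that of monocyte-like cells. Their HIF-side sum was below those of epithelial-like (1848 CPM), endothelial-like (1681 CPM) and T-like cells (1447 CPM).

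**Figure D1:**
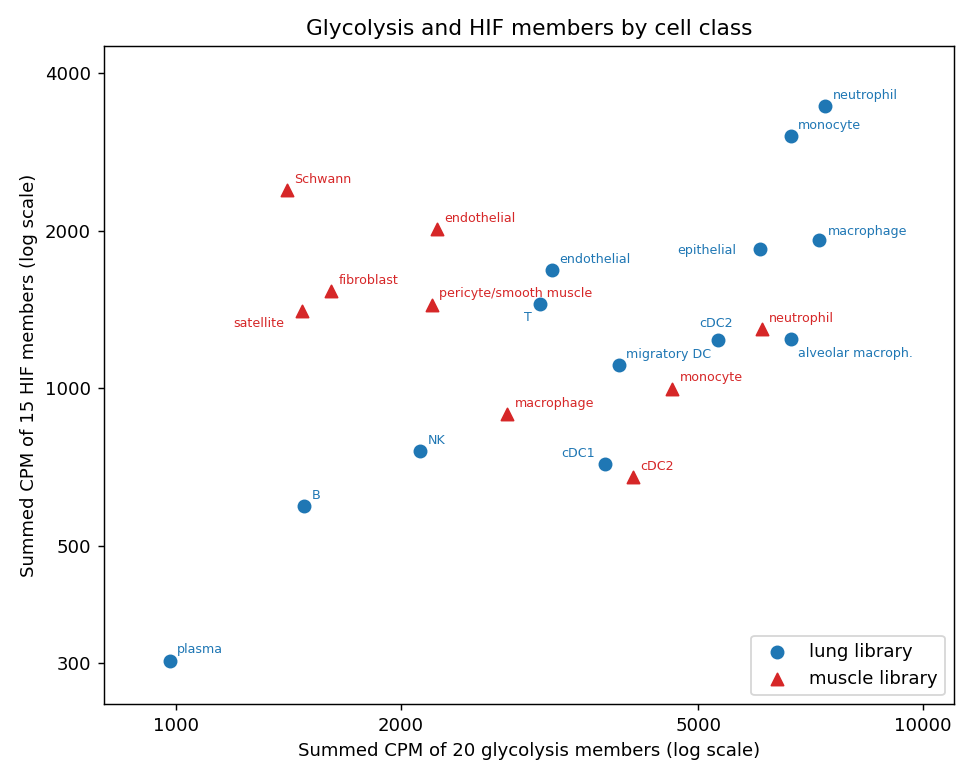
Summed level of the 20 glycolysis members (x axis, CPM) against the summed level of the 15 HIF-side members (y axis, CPM), 1 point per cell class, lung and muscle marked separately. Lung neutrophil-like and monocyte-like cells lie at the upper right (7398 and 3460 CPM, 6656 and 3034 CPM), alveolar macrophage-like cells lie far right but low (6653 and 1242 CPM), and muscle Schwann-like cells lie left and high (1407 and 2388 CPM).

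By gene, 9 of the 35 members had their highest lung level in monocyte-like cells, 8 in neutrophil-like, 5 in epithelial-like, 4 in macrophage-like and 3 in endothelial-like cells, and the remaining 6 in 4 other classes. None was highest in B-like, plasma-like, NK-like or cDC1-like cells (cDC1 and cDC2 are the conventional dendritic cell types).

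**Figure D2:**
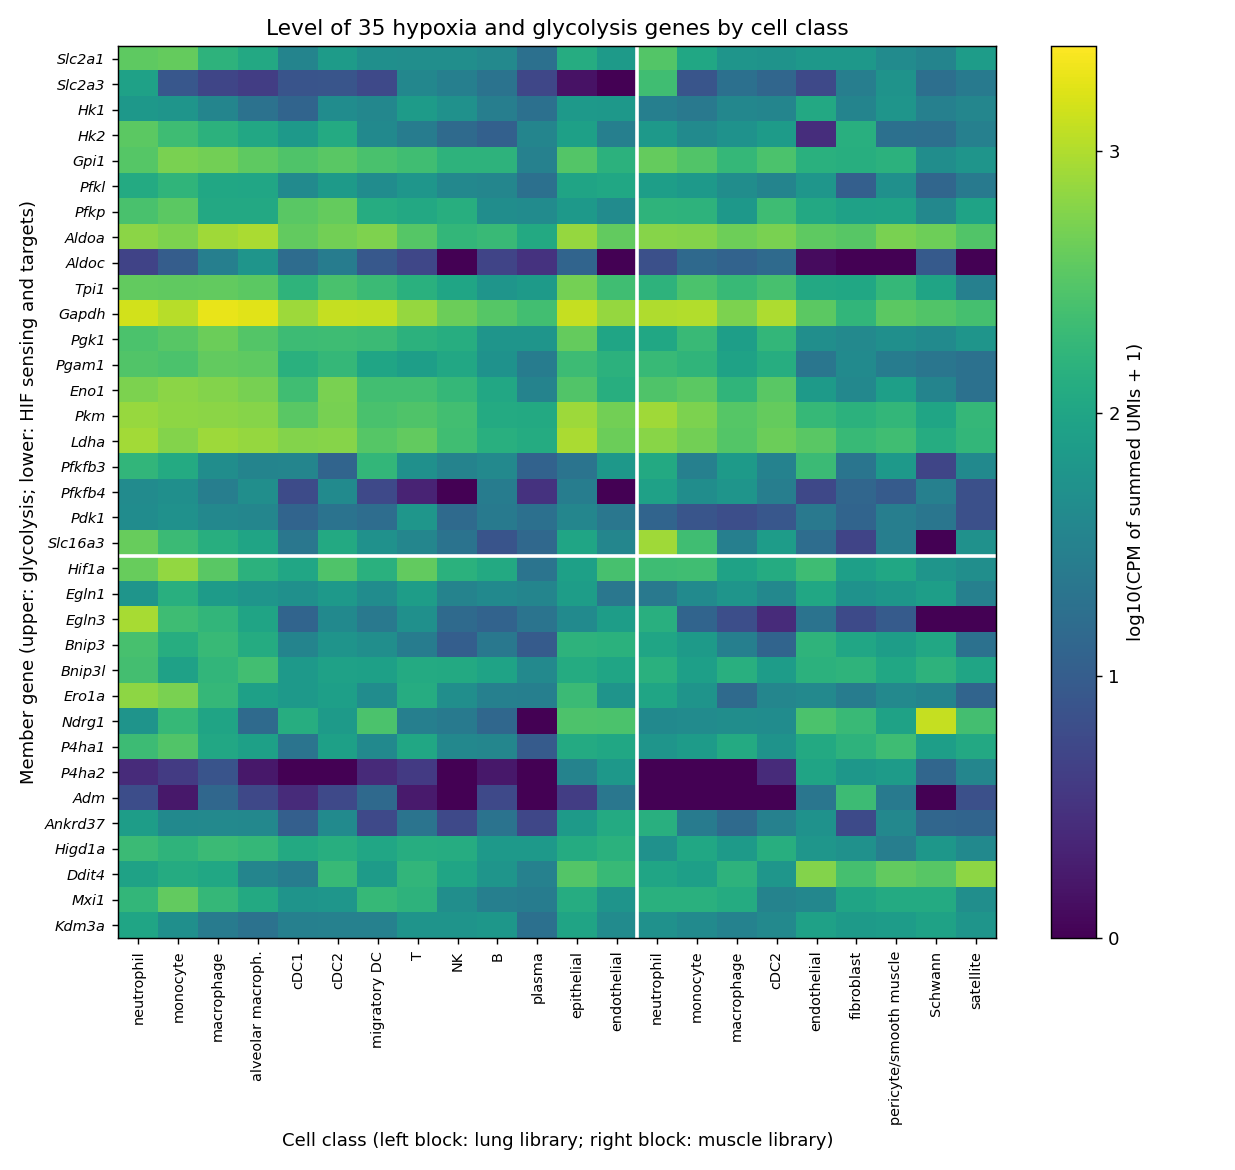
Level of each of the 35 members (rows, ordered by role) in the 13 lung and 9 muscle cell classes (columns), coloured by log10(CPM + 1). The glycolytic enzymes form a broad band over myeloid and epithelial-like classes, while Slc2a3, Egln3 and Slc16a3 stand out in neutrophil-like cells and P4ha2 is found mainly in endothelial-like, stromal and epithelial-like classes.

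The 2 glucose transporters had different orders over the lung classes. Slc2a1 (GLUT1), the transporter most cells use, was 396 CPM [374-419] in monocyte-like and 362 [347-377] in neutrophil-like cells, 156 in macrophage-like, 128 in epithelial-like and 113 in alveolar macrophage-like cells, and between 17.2 and 72.3 in the other 8 lung classes. Slc2a3 (GLUT3), a high-affinity transporter, was 86.2 CPM [79.1-93.8] in neutrophil-like cells, 36.3 in T-like, 27.9 in NK-like and 18.5 in B-like cells. In all the remaining lung classes Slc2a3 was at most 7.37 CPM, and 0.457 in epithelial-like cells (1 count). Slc2a1 was thus highest in monocyte-like and neutrophil-like cells, and Slc2a3 in neutrophil-like and then in T-like, NK-like and B-like cells. The monocyte-like Slc2a1 level was raised by cluster 26, as given below.

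Among the enzymes, hexokinase 2 (Hk2), which traps glucose in the cell, differed widely between classes. It was 347 CPM [333-362] in neutrophil-like, 219 in monocyte-like, 152 in macrophage-like, 119 in cDC2-like and 9.90 in B-like cells. Hexokinase 1 (Hk1), the widely expressed form, was highest in T-like (71.5 CPM), epithelial-like (69.0) and neutrophil-like cells (64.3) and lowest in cDC1-like cells (11.4), so the 2 hexokinases did not share an order. Gapdh was 1914 CPM [1872-1956] in macrophage-like, 1779 in alveolar macrophage-like, 1455 in neutrophil-like, 1097 in monocyte-like and 236 in plasma-like cells. Ldha, which turns pyruvate to lactate, was 933 CPM [893-974] in epithelial-like, 852 in neutrophil-like, 792 in macrophage-like, 385 in T-like and 122 in plasma-like cells. Pyruvate kinase (Pkm) was likewise highest in epithelial-like (792 CPM) and neutrophil-like cells (743), and aldolase A (Aldoa) in alveolar macrophage-like (933) and macrophage-like cells (819). The epithelial-like levels here and below rest largely on 43 of 368 cells (cluster 53), which gave 1363900 of 2189959 counts. Ldha was lower in clusters 21 and 27 (171 and 134 cells), as given below.

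The other enzymes followed the myeloid classes with their own order. Phosphoglucose isomerase (Gpi1), enolase 1 (Eno1) and the liver-type phosphofructokinase (Pfkl) were highest in monocyte-like cells, at 522, 652 and 166 CPM. Phosphoglycerate kinase (Pgk1) and phosphoglycerate mutase (Pgam1) were highest in macrophage-like cells, at 432 and 383 CPM, and triose phosphate isomerase (Tpi1) in epithelial-like cells, at 486. The platelet-type phosphofructokinase (Pfkp) was highest in dendritic cells and monocyte-like cells, at 394 CPM in cDC2-like, 352 in monocyte-like and 342 in cDC1-like cells. The brain-type aldolase (Aldoc) was low throughout and was highest in alveolar macrophage-like cells, at 59.0 CPM. Eno1 and Pgam1 have near-identical copies that took few counts (Eno1b 197 beside 13956 for Eno1 and Pgam1-ps2 101 beside 7703 for Pgam1 in lung), so the split between them is uncertain.

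The 4 genes that set flux or export lactate each had the highest value in a different class, and for all but Slc16a3 the intervals of the first and second class overlapped. Slc16a3 (MCT4), the lactate exporter, was 401 CPM [385-417] in neutrophil-like, 206 in monocyte-like and 132 in macrophage-like cells and 6.60 in B-like cells. Pfkfb3, whose product activates phosphofructokinase, was 177 CPM in migratory dendritic-like, 170 in neutrophil-like and 120 in monocyte-like cells and between 10.7 and 63.0 in the other classes. Its paralog Pfkfb4 was highest in monocyte-like (48.4 CPM) and alveolar macrophage-like cells (47.4) and was 1.17 in T-like cells. Pdk1, which keeps pyruvate out of the mitochondria, was highest in T-like cells (60.1 CPM) and ranged down to 11.4 in cDC1-like cells.

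Oxygen sensing genes differed in order from one another. Hif1a was 705 CPM [676-735] in monocyte-like cells, 410 in neutrophil-like, 385 [361-409] in T-like and 339 in macrophage-like cells, and was low in epithelial-like (83.6) and plasma-like cells (19.3). Egln3, a HIF hydroxylase that HIF itself induces, was 913 CPM [889-937] in neutrophil-like cells, 217 in monocyte-like, 171 in macrophage-like and 94.9 in alveolar macrophage-like cells, and at most 77.1 in every other class. Egln1, the main HIF hydroxylase in most tissues, was highest in monocyte-like cells (139 CPM) and otherwise between 21.0 and 77.6. So Egln3 was more than 4-fold higher in neutrophil-like cells than in the next class, while Hif1a was higher in monocyte-like cells.

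Of the 12 other targets, Ero1a, an oxidase that helps proteins fold in the endoplasmic reticulum, was 656 CPM [636-677] in neutrophil-like and 520 [495-546] in monocyte-like cells, 210 in epithelial-like and 185 in macrophage-like cells, and between 27.9 and 127 elsewhere. The mitophagy receptors Bnip3 and Bnip3l were both highest in neutrophil-like cells, at 258 and 239 CPM. Higd1a, a mitochondrial membrane protein, lay within a narrow span, from 67.3 in B-like to 207 CPM in macrophage-like cells. P4ha1, a collagen prolyl hydroxylase subunit, and Mxi1, an antagonist of MYC, were highest in monocyte-like cells, at 295 and 377 CPM. Both were far higher in the Malat1-rich cluster 26 (131 cells) than in cluster 4 (379 cells), as given below. The histone demethylase Kdm3a was highest in neutrophil-like (97.8 CPM) and epithelial-like cells (96.3), whose intervals overlap.

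The remaining targets had their highest value in epithelial-like or endothelial-like cells, other classes often being close. Ndrg1, a stress-response gene, was 285 CPM in epithelial-like, 273 in endothelial-like and 273 in migratory dendritic-like cells, against 56.9 in neutrophil-like cells and none counted in plasma-like cells. P4ha2, another collagen hydroxylase subunit, was 63.0 CPM [28.8-120] in endothelial-like and 32.4 [25.3-40.9] in epithelial-like cells and at most 6.54 elsewhere. Ankrd37, an ankyrin repeat protein, was 119 CPM in endothelial-like and 77.4 in neutrophil-like cells, with overlapping intervals. Ddit4 (REDD1), an inhibitor of mTORC1, was 306 CPM in epithelial-like, 196 in endothelial-like and 193 in cDC2-like cells. Adm, the vasodilator peptide adrenomedullin, was at most 21.0 CPM in any lung class, and that value in endothelial-like cells rests on 3 counts.

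Against all other lung cells, 10 of the 35 members were higher in neutrophil-like cells, beside 11% of 15440 genes, and 3 were lower, beside 46.2%. The 10 were Slc2a3 (8.28-fold), Egln3 (7.47-fold), Slc16a3 (3.21-fold), Pfkfb3 (3.06-fold), Ero1a (3.02-fold), Hk2 (2.88-fold), Slc2a1 (2.24-fold), Kdm3a (2.23-fold), Bnip3 (2.16-fold) and Ankrd37 (2.08-fold). The 3 lower were P4ha2 (6.19-fold), Aldoc (4.93-fold) and Ndrg1 (2.32-fold). The median log2 ratio was 0.31 over the glycolysis members and 0.30 over the HIF-side members, beside -0.87 over all genes. The scaling matters for this class: 14 members were higher and 2 lower with trimmed-mean (TMM) scaling, which puts the median of all genes at -0.37, and 24 higher and 2 lower when ratios were centred on the median of all genes. Finer clustering (Leiden resolution 2) left 6 higher. Of the other genes of these pathways, only Hk3, a hexokinase of myeloid cells, was past 4-fold higher, at 5.39-fold.

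Within the neutrophil-like cells the members differed from cluster to cluster. The 10 clusters of this class held Ero1a at 133, 193, 274, 332, 390, 516, 568, 913, 1370 and 1439 CPM, so every cluster had it but at very different levels. Egln3 ran only from 374 to 1189 CPM over the same clusters, and Hif1a from 273 to 708. A cluster of 422 cells led by Ccl3, Mreg and Hcar2 (cluster 3) had 13 of 34 measured members higher than in the other neutrophil-like cells, beside 9.95% of 9543 genes, and 1 lower, beside 14.8%. The 13 were 9 of 14 HIF-side members and 4 of 20 glycolysis members, with median log2 ratios of 1.32 and 0.49 beside -0.09 over all genes. They included P4ha1 (546 against 166 CPM, 3.28-fold), Bnip3 (652 against 199, 3.27-fold), Higd1a (3.12-fold), Kdm3a (3.05-fold), Bnip3l (2.72-fold), Ero1a (1370 against 550, 2.49-fold), Pdk1 (2.42-fold) and Ldha (1665 against 731, 2.28-fold). Adm was 5.60-fold higher, on 15 counts in these cells. In the same cluster Egln3 (883 against 917 CPM) was within 2-fold, and Hif1a was 273 CPM, the lowest of the 10 clusters.

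The cluster led by Retnlg, Lcn2 and Mmp8 (cluster 9, 283 lung cells), genes of recently formed neutrophils, had 13 of 34 members lower, beside 32.4% of genes, and 1 higher, beside 3.77%. That share is near the background, and centred on the median of all genes, which was -0.60, the split was 3 higher and 4 lower. Lower members included P4ha1 (4.05-fold), Higd1a (3.95-fold), Ero1a (193 against 711 CPM, 3.68-fold), Hk2 (3.53-fold) and Ldha (2.30-fold). The member that was higher was Slc2a3, at 228 CPM [193-268] against 69.4 (3.28-fold).

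Another cluster (cluster 12, 278 cells) had 2.00% of its counts in Malat1, against 0.629% in the other neutrophil-like cells. There 7 of 34 members were higher, beside 19.7% of genes, and 12 lower, beside 23.2%. The number higher was near the background share. Members of the glycolysis side and of the HIF side were found in both directions. Pfkfb3 (4.21-fold), Ero1a (2.65-fold), Mxi1 (2.58-fold), Slc2a1 (2.56-fold), Pfkp (2.41-fold), P4ha1 (2.37-fold) and Hk1 (2.25-fold) were higher, while Gapdh (5.03-fold), Ankrd37 (3.99-fold), Aldoa (3.36-fold) and Ldha (2.79-fold) were lower. The part of the Malat1 share in these differences was not tested.

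**Figure D3:**
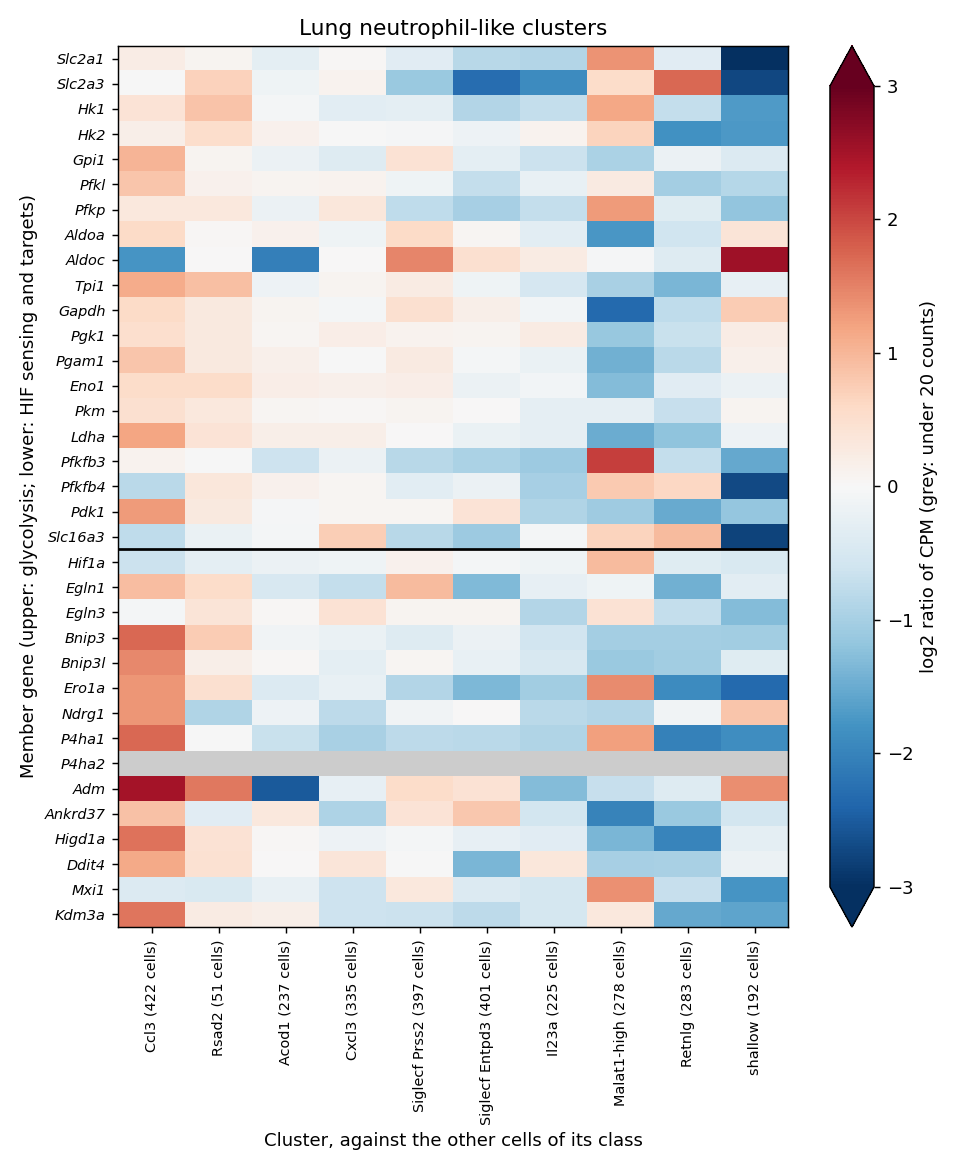
Log2 ratio of each member (rows) in each of the 10 lung neutrophil-like clusters (columns) to the other neutrophil-like cells, red higher and blue lower; grey marks a gene with under 20 counts over both sides. The HIF-side rows are red in the Ccl3 cluster (9 of 14 past 2-fold) and blue in the Retnlg cluster (8 of 14 past 2-fold), where Slc2a3 is red.

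In lung monocyte-like cells 4 members were higher than in all other lung cells, beside 7.38% of genes, and 3 lower, beside 20.7%. Mxi1 (2.23-fold), Hif1a (2.21-fold), P4ha1 (2.20-fold) and Slc2a1 (2.18-fold) were higher, and Adm (9.54-fold), Slc2a3 (4.0-fold) and P4ha2 (3.04-fold) lower. These calls sat close to the threshold. They became 1 higher and 5 lower with TMM scaling and 6 higher and 3 lower when centred, and coarser or finer clustering gave 12 and 9 higher.

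The monocyte-like class was made of 2 clusters. Cluster 4 (379 lung cells, led by Vcan and Ccr2) had Ero1a at 135 CPM [120-152], Egln3 at 97.5 and Hif1a at 534, and cluster 26 (131 cells) had Ero1a at 1250 CPM [1184-1318], Egln3 at 442 and Hif1a at 1027. Against cluster 4, cluster 26 had 13 of 33 members higher, beside 36.2% of genes, and 2 lower, beside 16%. Ero1a (9.24-fold), Ndrg1 (6.71-fold), Mxi1 (5.48-fold), Egln3 (4.54-fold), P4ha1 (4.43-fold), Pfkfb3 (4.30-fold), Slc2a1 (4.26-fold) and Hk2 (3.50-fold) led, and Gapdh (3.85-fold) and Aldoa (2.46-fold) were lower. The number higher was near the background share, and centred on the median of all genes (0.55) 9 were higher and 8 lower. Malat1 took 0.929% of counts in cluster 26 and 0.229% in cluster 4, and its part in these values was not tested. Without cluster 26 the monocyte-like class had a glycolysis sum of 6873 CPM, a HIF-side sum of 1762 CPM and no member higher than in the other lung cells.

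Lung macrophage-like cells, as a class, differed little from the rest of the lung. Adm (2.97-fold) and Aldoc (2.12-fold) were higher, which is 2 of 35 members beside 3.87% of genes, and Slc2a3 (7.40-fold) and Kdm3a (2.42-fold) were lower, 2 beside 30.2%. Centred on the median of all genes (-0.49), 6 were higher and 1 lower, and coarser clustering left none higher. Alveolar macrophage-like cells had 1 member higher, beside 4.62%, and 10 lower, beside 27.9% (2 and 8 when centred on -0.34). The 10 were P4ha2 (13.4-fold), Slc2a3 (8.87-fold), Ndrg1 (8.63-fold), Ero1a (3.81-fold), Ddit4 (3.79-fold), Egln3 (3.24-fold), Kdm3a (3.23-fold), Hk1 (2.90-fold), Pfkfb3 (2.51-fold) and Hif1a (2.45-fold), of which 7 are on the HIF side. Aldoc was the member that was higher (4.47-fold). Pdk4, another kinase that restrains pyruvate oxidation, was 12.6-fold higher, on only 26 counts in all kept lung cells.

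The macrophage-like clusters differed from each other in these genes. A cluster of 196 cells led by Gpnmb, Mmp12 and Spp1 (cluster 18) had 12 of 34 members higher than in the other macrophage-like cells, beside 4.68% of 9335 genes, 10 of them on the HIF side (18 when centred on -0.16). Egln3 was 331 CPM [304-360] there against 68.6 (4.83-fold), and Ndrg1 (3.77-fold), Ankrd37 (3.05-fold), Ero1a (2.78-fold), Mxi1 (2.71-fold), Ddit4 (2.66-fold), Bnip3 (2.63-fold), Slc2a1 (2.46-fold), P4ha2 (2.42-fold), Slc16a3 (2.24-fold) and Bnip3l (2.00-fold) were also higher. Adm was 29.4 CPM [21.7-38.8] against 1.92 (15.3-fold). A cluster of 203 cells led by C1qa, Cd163 and Ccl8 (cluster 13) had no member higher and 9 lower, beside 3.2% of genes, and all 9 were on the HIF side. The 9 were Adm (40.2-fold), Egln3 (3.65-fold), Ankrd37 (3.49-fold), P4ha2 (3.49-fold), Bnip3 (2.72-fold), Ndrg1 (2.70-fold), Higd1a (2.08-fold), Bnip3l (2.04-fold) and Ero1a (2.02-fold). Centred on the median of all genes (0.39), 18 were lower, glycolysis members among them. The 2 contrasts overlap, since cluster 18 gave 1668887 of the 2433936 counts on the reference side of cluster 13. The HIF-side sums were 2823 CPM in cluster 18, 1378 in cluster 13 and 1234 in the remaining cluster 1. By these sums cluster 13 was low against cluster 18 and not against cluster 1. The 765 macrophage-like cells of cluster 1 were shallow, with a median of 754 counts and 19.2% of counts in Rn18s. They are part of both reference sides, and their part was not tested. Against the other macrophage-like cells, cluster 1 had no member higher, beside 1.6% of genes, and 13 of 34 lower, beside 33.3%. Of those 13, 9 were on the HIF side, and 2 members were lower when centred on -0.61.

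A further mononuclear cluster that the markers did not name (cluster 11, 308 cells, led by Il6, Lif and Arg1) had sums of 9849 CPM for glycolysis and 3431 for the HIF side. Against the pooled monocyte-like and macrophage-like cells, Ndrg1 (2.15-fold) and Ddit4 (2.07-fold) were higher, 2 of 35 beside 2.22% of genes, and Adm was 2.01-fold lower (3 higher and none lower when centred on -0.20). The median log2 ratios were 0.51 on the glycolysis side and 0.42 on the HIF side, beside -0.20 over all genes.

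The dendritic types differed from each other. cDC1-like cells, which cross-present antigen, had 21 members lower than in other lung cells, beside 18.8% of genes, among them Egln3 (26.4-fold), Slc16a3 (8.91-fold), P4ha1 (7.87-fold) and Slc2a1 (6.40-fold), and none higher. cDC2-like cells had 8 lower, beside 14%, led by Egln3 (7.56-fold), Pfkfb3 (7.02-fold), Slc2a3 (3.91-fold) and Ero1a (3.89-fold), and Pfkp was higher (2.02-fold), 1 beside 8.76% (none with TMM scaling, where 9 were lower). Migratory dendritic-like cells, marked by Ccr7 and Fscn1, had 19 lower, beside 20.7%, led by Egln3 (13.2-fold), Ankrd37 (10.3-fold) and Ero1a (7.24-fold). In these migratory cells Adm (2.58-fold), Ndrg1 (2.44-fold) and Pfkfb3 (2.25-fold) were higher, 3 beside 10.4%, and 2 other enolases, Eno2 (28.1-fold) and Eno3 (23.2-fold), were past 4-fold. Eno2 had only 25 counts in all kept lung cells.

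No member was called higher in T-like, B-like or NK-like cells. T-like cells had 17 members lower than other lung cells, beside 21.6% of genes, and none higher, beside 20.5%. The lower members were led by Pfkfb4 (28.1-fold), Adm (7.65-fold), Hk2 (7.28-fold), Egln3 (6.46-fold), Bnip3 (6.28-fold), Slc16a3 (5.64-fold) and Slc2a1 (4.68-fold). B-like cells had 27 lower, beside 24.2%, led by Slc16a3 (29.7-fold), Egln3 (27.8-fold) and Hk2 (18.1-fold). NK-like cells had 25 lower, beside 11.2%, led by Egln3 (21.3-fold), Bnip3 (16.2-fold) and Hk2 (12.3-fold). The NK-like share of 11.2% is held down by the floor, since this class had only 214939 counts. How far the floor widens the gap between members and all genes was not tested. Plasma-like cells had 33 lower, beside 35.6%, led by Hif1a (19-fold), Ndrg1 (at least 18.3-fold, with no count) and P4ha1 (17.9-fold). Free RNA from other cells puts a limit on such low levels: S100a8, a neutrophil gene, was 124 to 619 CPM in the lung classes other than neutrophil-like cells, and its part was not tested.

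Among T-like cells the subsets differed by more than the class averages show. The cluster with Foxp3, Ctla4 and Il2ra, markers of regulatory T cells (cluster 17, 210 cells), had 10 of 31 members higher than the other T-like cells, beside 8.55% of 9208 genes, 7 of them on the HIF side. Mxi1 was 342 CPM [301-388] against 81.8 (4.18-fold), Hif1a 641 [584-703] against 285 (2.25-fold), and Ero1a 236 against 84.0 (2.81-fold). Ndrg1 (3.91-fold), Ddit4 (2.65-fold), Slc2a1 (2.45-fold), P4ha1 (2.43-fold), Hk2 (2.35-fold), Slc16a3 (2.31-fold) and Egln3 (2.10-fold) were also higher, as was Vegfa (5.04-fold), the angiogenic growth factor.

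The cluster with Lef1 and Tcf7, genes of naive and memory T cells (cluster 16, 217 cells), had 16 members lower, beside 16.9%, and 1 higher, beside 4.89% (2 higher and 9 lower when centred on -0.16). Mxi1 (4.88-fold), Tpi1 (4.49-fold), Hk2 (3.54-fold), Egln3 (3.45-fold), Ero1a (3.35-fold) and Hif1a (2.34-fold) were lower. The member that was higher was Pdk1, at 151 CPM [119-190] against 39.0 (3.88-fold). The cluster with Ly6c2 and Cd8b1 (cluster 31, 112 cells) had 12 members lower, beside 16.3%, led by Ero1a (5.39-fold), Egln3 (5.28-fold), Slc16a3 (3.73-fold), P4ha1 (3.37-fold) and Hif1a (2.90-fold). Over the 6 T-like clusters Hif1a ran from 147 to 641 CPM, the regulatory-marker cluster being highest.

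**Figure D4:**
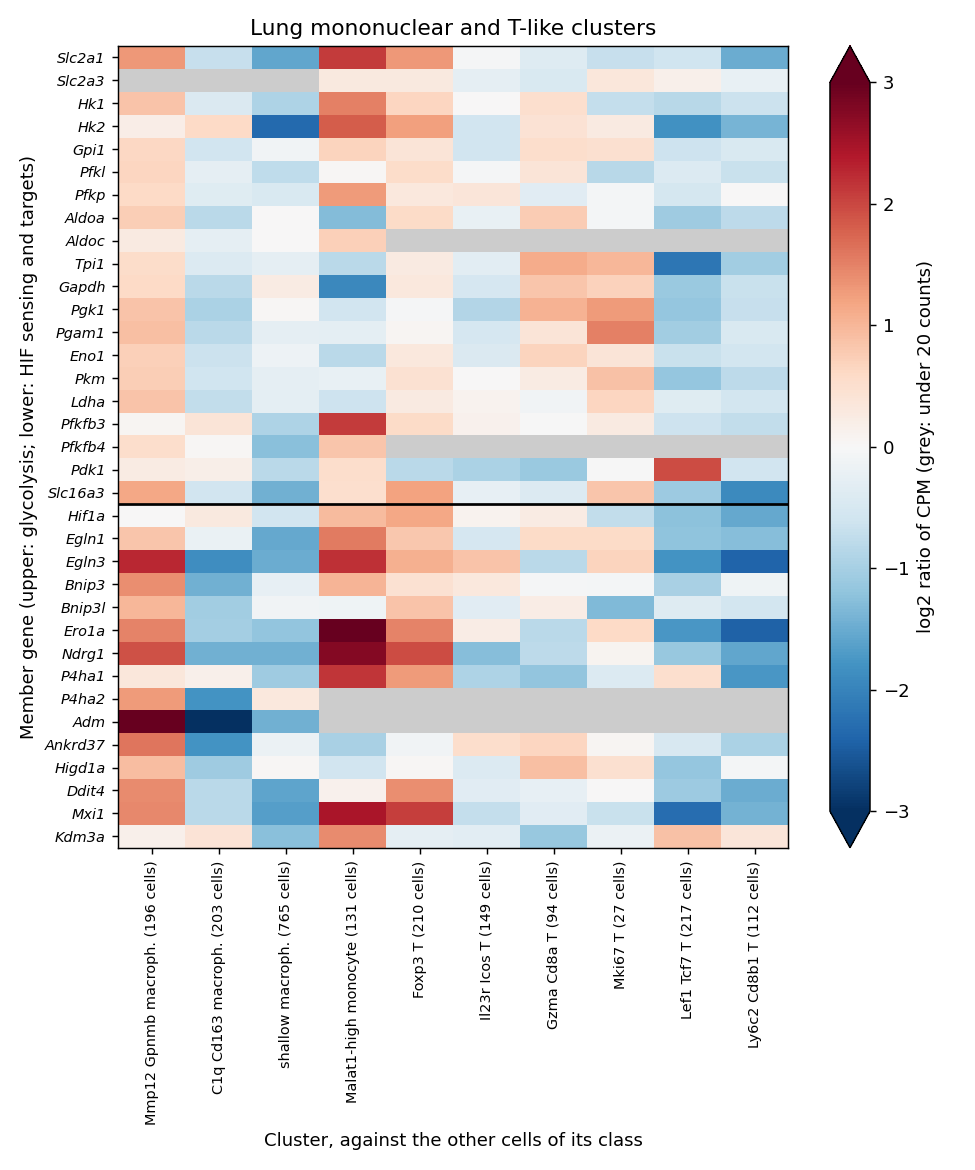
Log2 ratio of each member (rows) in 10 clusters of lung macrophage-like, monocyte-like and T-like cells (columns) to the other cells of the same class, red higher and blue lower. HIF-side rows are mostly red in the Mmp12 Gpnmb macrophage-like, Malat1-high monocyte-like and Foxp3 T-like clusters. They are mostly blue in the C1q Cd163 and the shallow macrophage-like clusters and in the Lef1 Tcf7 and the Ly6c2 Cd8b1 T-like clusters.

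Lung epithelial-like cells had 3 members higher, beside 20.3% of genes, and 6 lower, beside 22.8%. P4ha2 (5.33-fold), Ndrg1 (2.81-fold) and Ddit4 (2.77-fold) were higher, all on the HIF side. Slc2a3 (64.1-fold), Egln3 (7.63-fold), Hif1a (4.60-fold), Pfkfb3 (4.48-fold), Pfkp (3.03-fold) and Hk2 (2.07-fold) were lower. Of the other pathway genes Vldlr (22.3-fold), Pfkfb2 (10.9-fold), Stc2 (7.29-fold), Cited2 (5.03-fold), Eno3 (4.99-fold) and Plod2 (4.22-fold) were past 4-fold higher. Stc2 had only 29 counts in all kept lung cells. The epithelial-like sums rest largely on 1 small cluster, since 43 of the 368 cells (cluster 53, led by Krt18, Krt8 and Csf2) gave 1363900 of the 2189959 counts. Cluster 53 had Ldha at 1161 CPM and Ddit4 at 387, and clusters 21 and 27, with 171 and 134 cells of low depth (medians of 813 and 720 counts), had Ldha at 650 and 698 and Ddit4 at 95.3 and 98.5. Ndrg1 was 107 to 169 CPM in those 3 clusters and 789 in the 20 cells of cluster 61, which was rich in Malat1.

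Lung endothelial-like cells (63 cells, 142756 counts) had 4 members higher, beside 18.9% of genes, and 11 lower, beside 11.3% (2 and 18 with TMM scaling). P4ha2 (8.04-fold), Adm (3.87-fold), Ankrd37 (2.61-fold) and Ndrg1 (2.38-fold) were higher, all on the HIF side. The lower members were led by Hk2 (6.10-fold), Ero1a (5.63-fold), Slc16a3 (5.32-fold), Pfkp (4.73-fold), Egln3 (3.85-fold), Egln1 (3.72-fold) and Eno1 (3.72-fold). Epas1, which encodes the HIF-2 alpha subunit typical of endothelium, was 85.6-fold higher.

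In muscle the leukocyte-like classes again had the highest glycolysis sums, 6086 CPM in neutrophil-like, 4615 in monocyte-like, 4083 in cDC2-like and 2775 in macrophage-like cells. Endothelial-like cells had 2235, pericyte or smooth muscle-like 2200, fibroblast-like 1614, satellite-like (muscle stem cell) 1474 and Schwann-like cells 1407 CPM. The HIF-side sum followed another order: 2388 CPM in Schwann-like, 2016 in endothelial-like, 1536 in fibroblast-like, 1446 in pericyte or smooth muscle-like, 1404 in satellite-like and 1299 in neutrophil-like cells, and 678 in cDC2-like cells. By class sums, then, structural cells led on the HIF side in muscle, while in lung neutrophil-like, monocyte-like and macrophage-like cells led on both. The lung lead was narrow for macrophage-like cells, with a HIF-side sum of 1916 CPM against 1848 in epithelial-like cells. It came from cluster 18 (2823 CPM), clusters 13 and 1 having 1378 and 1234. Without the Malat1-rich clusters the sum was 1762 CPM in monocyte-like and 1448 in epithelial-like cells. Single genes weighed heavily in the muscle sums. Ndrg1 gave 1246 of the 2388 CPM in Schwann-like cells. Ddit4 gave 656 of 1404 CPM in satellite-like and 579 of 2016 in endothelial-like cells.

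Muscle endothelial-like cells had 8 members higher than the other muscle cells, beside 13.6% of 13342 genes, and 10 lower, beside 23.8%. Of the 8, 6 were on the HIF side, and 8 of the 10 were on the glycolysis side. Pfkfb3, known in endothelium as a driver of sprouting, was 210 CPM [195-225], 5.15-fold higher than in the rest. P4ha2 (3.25-fold), Hk1 (2.99-fold), Ddit4 (2.98-fold), Bnip3 (2.55-fold), Ankrd37 (2.14-fold), Egln1 (2.04-fold) and Hif1a (2.01-fold) were also higher, as was Epas1 (7.92-fold). Hk2 was nearly missing, at 1.82 CPM [0.733-3.76] on 7 counts in 1196 cells (39.7-fold lower), while Hk1 was 112 CPM [101-123]. Aldoc (28.4-fold), Slc2a3 (6.53-fold), Pfkfb4 (5.75-fold), Slc16a3 (5.18-fold) and Pgam1 (4.03-fold) were lower as well.

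Its clusters differed, also where they shared vessel markers, and clusters 33 and 45 were rich in Malat1. Cells with Ackr1 and Selp, venous markers (cluster 35, 78 cells), had 9 of 31 members higher, beside 8.2% of 10053 genes, and 4 lower, beside 20.7% (15 and 4 when centred on -0.23). Slc16a3 (3.58-fold), Egln3 (3.53-fold), Slc2a1 (3.44-fold), Gapdh (2.67-fold) and Pkm (2.58-fold) were higher there, and Bnip3 (4.72-fold), Pfkfb3 (2.95-fold), Mxi1 (2.86-fold) and P4ha2 (2.61-fold) lower. Cells with Stmn2, Fbln5 and Sema3g, arterial markers (cluster 36, 81 cells), had 4 higher, beside 5.55%, namely Ankrd37 (3.45-fold), Ldha (2.24-fold), Bnip3 (2.20-fold) and Aldoa (2.14-fold) (8 higher and 3 lower when centred on -0.30, from 4 and 3). Cells with Gpihbp1 and Timp4, capillary markers (cluster 10, 324 cells), had Ddit4 (1137 against 388 CPM, 2.93-fold) and Bnip3 (2.17-fold) higher, 2 of 31 beside 10.5%. In cluster 10, 5 members were lower, beside 17.8%, 3 of them on the glycolysis side and 2 on the HIF side. Other clusters with such markers had other splits. Cluster 45 (65 cells, led by Selp) had 6 higher, beside 18.1%, and 7 lower, beside 24.8%. Its glycolysis sum was 1867 CPM, against 3595 in cluster 35. Cluster 33 (92 cells, Gja5 at 72.9 CPM, an arterial marker) had 5 higher, beside 15.3%, and 9 lower, beside 25.6%. Clusters 24 and 37, high in capillary markers, had 2 and 0 higher, beside 5.85% and 6.56%. They had 3 and 4 lower, beside 21.9% and 24.7%. Cluster 8 (330 cells, Malat1 1.22% against 0.554%) had 17 lower, beside 29%, led by Gapdh (10.6-fold), Pgam1 (8.66-fold) and Egln3 (7.87-fold), and the part of the Malat1 share was not tested.

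Muscle fibroblast-like cells had 2 members higher, beside 14.1%, and 11 lower, beside 20.6%. Adm was 211 CPM [186-238], 16.4-fold higher than in other muscle cells and the highest level of this peptide gene in any class of either library. Over the 4 fibroblast-like clusters Adm was 432 CPM in the one led by Apod, Smoc2 and Cxcl14 (cluster 34) and 25.4, 69.0 and 83.7 in the others. Hk2 was 138 CPM [118-160] (5.48-fold higher), with 345 CPM in cluster 39, whose Malat1 share was 2.50%, and 58.1, 74.6 and 123 in the others. The lower members were led by Slc16a3 (14.9-fold), Ankrd37 (8.69-fold), Pfkfb3 (6.50-fold) and Pfkl (5.15-fold), and the collagen cross-linking enzyme gene Lox was 37.1-fold higher.

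Schwann-like cells had 2 members higher, beside 18.9%, and 16 lower, beside 16.9%. Ndrg1, needed for upkeep of myelin, was 1246 CPM [1109-1395] (6.92-fold higher). Aldoc was 2.00-fold higher, but it had only 37 counts in all kept muscle cells. Ndrg1 was 2804 CPM [2460-3183] in the 27 cells of cluster 58 and 554 and 234 CPM in the other 2 Schwann-like clusters. This 1 gene gave 1246 of the 2388 CPM of the HIF-side sum of the class. Pfkfb3 (28.6-fold) and P4ha2 (4.83-fold) led the lower members, and Ldhb (23.7-fold), the lactate dehydrogenase form that favours pyruvate, was higher.

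Pericyte or smooth muscle-like cells had Slc2a3 (3.28-fold) and P4ha1 (2.04-fold) higher, 2 beside 13.3%, and Higd1a (2.67-fold), Hk2 (2.52-fold), Ndrg1 (2.41-fold) and Pgam1 (2.25-fold) lower, 4 beside 18.5% (1 and 13 with TMM scaling). P4ha1 was 674 CPM in cluster 51 and 136 and 114 in the other 2 of its clusters with at least 20 cells. Satellite-like cells had 15 lower, beside 18.9%, led by Eno1 (7.39-fold), Adm (7.19-fold), Bnip3 (6.17-fold) and Tpi1 (5.29-fold), and none higher. Ddit4 was 656 CPM [540-788] in satellite-like cells, the highest of any named muscle class. Immediate-early and heat shock genes, which tissue digestion can induce, summed to 33421 CPM in these cells, while the other classes of muscle had 3538 to 11713 CPM, and their part was not tested.

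Muscle neutrophil-like cells (51 cells) had 13 members higher than other muscle cells, beside 9.41%, and 7 lower, beside 28.4%. Slc16a3 was 810 CPM [682-956] (22.1-fold), Slc2a3 230 [164-313] (15.4-fold) and Egln3 138 [88.4-205] (12.4-fold), and Pfkfb4 (5.84-fold), Slc2a1 (4.90-fold), Ankrd37 (3.97-fold), Pgam1 (3.71-fold), Pkm (3.48-fold) and Ero1a (2.72-fold) followed. Muscle monocyte-like cells (46 cells) had 9 higher, beside 9.8%, led by Slc16a3 (5.28-fold), Aldoc (3.62-fold) and Pgam1 (3.38-fold), and 8 lower, beside 25.8%. Muscle cDC2-like cells (123 cells) had 7 higher, beside 10.3%, led by Aldoc (5.14-fold), Eno1 (3.61-fold) and Pgam1 (3.08-fold), and 12 lower, beside 36.1%, of which 9 were on the HIF side (12 and 7 with TMM scaling, 14 and 7 when centred on -0.56). Muscle macrophage-like cells (61 cells) had Pfkfb4 (4.11-fold) and Aldoc (2.85-fold) higher, 2 beside 10.6%, and 10 lower, beside 21.4%, of which 9 were on the HIF side. All Aldoc calls between muscle classes, here and above, rest on 37 counts over the kept muscle cells. In the neutrophil-like, monocyte-like, cDC2-like and macrophage-like cells of muscle, 9, 8, 6 and 2 of the members that were higher were on the glycolysis side, and 4, 1, 1 and 0 on the HIF side.

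The 32 other genes of these pathways, from a list that holds further enzymes, regulators and HIF targets, can be set beside the members by their counts alone. Of the 31 measured in lung, 4 were higher and 13 lower in neutrophil-like cells, 2 and 10 in monocyte-like, 2 and 9 in macrophage-like, 6 and 10 in T-like, 2 and 20 in B-like, 10 and 10 in epithelial-like and 4 and 6 in endothelial-like cells. Of the 31 measured in muscle, 3 were higher and 15 lower in endothelial-like, 8 and 6 in fibroblast-like, 7 and 7 in Schwann-like, 5 and 7 in neutrophil-like and 4 and 7 in macrophage-like cells.

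Like-named cells of the 2 tissues can be set side by side only as 1 library against 1, so tissue, library and handling cannot be told apart. In neutrophil-like cells 11 of 34 measured members were lower in muscle than in lung, beside 18.6% of 9602 genes, and 3 were higher, beside 8.05% (17 and 1 with TMM scaling). Ero1a was 97.7 CPM [56.9-156] in muscle and 656 in lung (6.72-fold lower), and Egln3 138 and 913 (6.62-fold). Hk2 (5.04-fold), Higd1a (3.96-fold), Pdk1 (3.86-fold) and P4ha1 (3.75-fold) were also lower, while Slc2a3 (2.67-fold), Slc16a3 (2.02-fold) and Pfkfb4 (2.01-fold) were higher in muscle.

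The 2 neutrophil-like populations were not made of the same subsets. In muscle 42 of 51 cells fell in the Retnlg cluster (cluster 9), and in lung 283 of 2821 did. Within that cluster 3 of 30 members were lower in muscle, beside 13.1% of genes, and 2 higher, beside 7.14%. Egln3 (126 against 581 CPM, 4.61-fold), Ero1a (56.0 against 193, 3.45-fold) and Hk1 (2.93-fold) were still lower, Ankrd37 (2.94-fold) and Ddit4 (2.01-fold) were higher, and Slc2a3 was 273 CPM [194-373] in muscle and 228 [193-268] in lung. Of the 11 members lower in the whole class, Egln3, Ero1a and Hk1 were thus also lower within this cluster, and the other 8 were within 2-fold there or under the count minimum.

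In monocyte-like cells 14 of 33 members were lower in muscle, beside 16.1% of 9278 genes, and none higher, beside 3.7%. Egln3 (19.2-fold), Ero1a (9.20-fold), Pdk1 (7.65-fold), Hk2 (5.38-fold), Ndrg1 (4.41-fold), P4ha1 (4.07-fold), Pfkfb3 (4.06-fold), Slc2a1 (3.81-fold), Egln1 (3.41-fold) and Hif1a (3.12-fold) led. Of the 46 muscle cells, 40 lay in cluster 4, where 10 of 32 members were lower, beside 10.6%, and 1 was higher, beside 3.94%. There the gap narrowed for Ero1a (50.6 against 135 CPM, 2.67-fold) and Egln3 (7.70-fold, 12.7 against 97.5), and Pdk1 (8.90-fold), Hk2 (3.32-fold), Pfkl (2.72-fold) and Hif1a (2.67-fold) remained lower, with Aldoc 2.07-fold higher. With 1 level of clustering 25 members of the class were lower, and without the Malat1-rich clusters 8.

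The widest difference was in macrophage-like cells, where 20 of 35 members were lower in muscle, beside 9.28% of 9590 genes, and 2 higher, beside 18.5%. Egln3 was 5.63 CPM [0.682-20.3] in muscle and 171 in lung (30.4-fold), Hif1a 90.1 [61.6-127] and 339 (3.77-fold) and Gapdh 540 and 1914 (3.54-fold). Ero1a (13.2-fold), Bnip3 (6.82-fold), Pdk1 (6.77-fold), Pgk1 (5.48-fold), Slc16a3 (4.71-fold) and Pgam1 (4.25-fold) were lower too, and Slc2a3 (4.02-fold) and Pfkfb4 (2.13-fold) higher. With 1 level of clustering 12 were lower. Here the shared cluster differed as widely as the class. In the C1qa and Cd163 cluster (cluster 13, 51 muscle and 203 lung cells) 19 of 33 members were lower in muscle, beside 13.4%, and 1 higher, beside 13%. Egln3 was 3.50 CPM on 1 count against 68.3, Hif1a 70.0 [42.8-108] against 378 [350-407] (5.40-fold) and Gapdh 413 against 1345 (3.26-fold), and 13 of the 19 were on the glycolysis side. The myofibre genes summed to 815 CPM in the muscle cells of this cluster and 10.8 in the lung cells, and their part was not tested.

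In cDC2-like cells, which all lay in 1 cluster of both libraries, 5 of 30 members were lower in muscle, beside 11.8% of 7250 genes, and 1 higher, beside 12.3%. Bnip3 (4.93-fold), Ddit4 (3.18-fold), Hif1a (2.34-fold), Ero1a (2.34-fold) and Pfkl (2.11-fold) were lower and Pfkfb3 (2.71-fold) higher. The number lower was 3 to 9 under other filters and clusterings. In endothelial-like cells, where cluster 52 held 44 of the 63 lung cells and 2 muscle cells, 9 of 31 were lower, beside 13.9% of 10217 genes, and 5 higher, beside 15.6% (4 and 6 with TMM scaling, and 4 lower without the Malat1-rich clusters). Pgam1 (7.49-fold), Egln3 (4.11-fold) and Pkm (2.50-fold) led the lower members, and Egln1 (5.06-fold), Pfkfb3 (3.33-fold), Ddit4 (2.95-fold), Pfkp (2.62-fold) and Kdm3a (2.05-fold) were higher. Egln3 was lower in muscle in 4 of these 5 comparisons and had too few counts in cDC2-like cells, and Ero1a was past 2-fold lower in the 4 leukocyte comparisons.

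**Figure D5:**
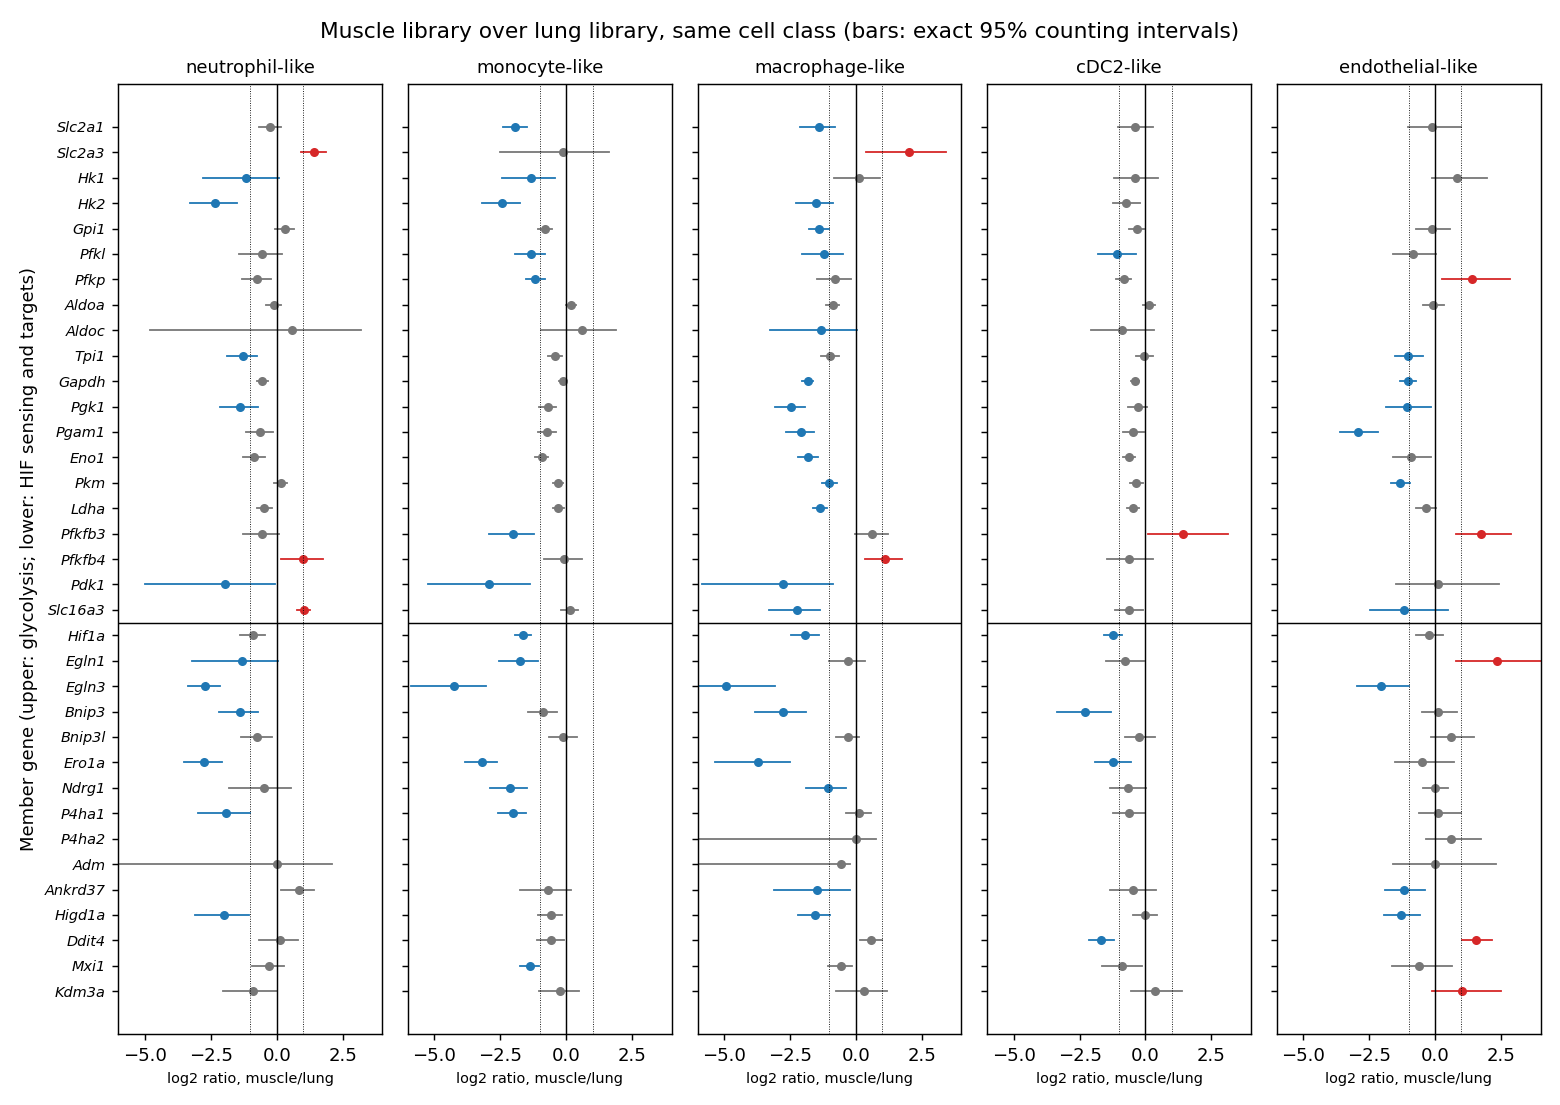
Log2 ratio of muscle to lung for each measured member in 5 like-named classes (panels), with 95% counting intervals as bars. Red is past 2-fold higher, blue past 2-fold lower and grey within 2-fold. Members under the count minimum are not drawn, and some bars are clipped at the axis ends. The macrophage-like panel has the most blue points (20 of 35) and Egln3 lies far left in the neutrophil-like, monocyte-like and macrophage-like panels.

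Across the 39 lung clusters with at least 100000 counts, the summed glycolysis and HIF-side levels had a Pearson correlation of 0.796 of their log2 values. All points come from 1 library, and the correlation of each sum with log2 depth was 0.0435 and 0.140. The closest pairs included Aldoa with Gapdh (0.96), Ldha with Pkm (0.92), Hk2 with Slc16a3 (0.90), Slc2a1 with Hk2 (0.89), Egln3 with Slc16a3 (0.89) and Ero1a with Slc2a1 (0.89). Slc2a3 was closest to Pfkfb3 (0.64), and its median correlation was 0.07 with the glycolysis members and 0.09 with the HIF-side members. These values describe the clusters and carry no test.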

How the data were processed

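The deposited values are whole-number UMI counts of each gene in each barcode. The submitters' processing notes name Cell Ranger 7.0.1 and the build GRCm39. The annotation and the counting of introns are not given in the sources used here, and the reference at hand was of GRCm38, so promoters are from RefSeq windows of that build and no coordinates of the deposited genes were used. Aldoa is listed under 2 gene IDs, whose counts were summed.

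Barcodes with at least 200 genes and at most 10% mitochondrial counts were kept. Doublets were removed by a simulation-based score at 0.8% per 1000 barcodes (100 muscle, 556 lung). Both libraries were clustered together on 2000 variable genes without the members (30 principal components, 15 neighbours, Leiden resolution 1, seed 1), and each lineage was clustered again, giving 66 clusters. A cluster was called X-like with at least 3 markers 2-fold up and found in 10% of its cells, and a mean log2 fold over 0.5. The clustering of each lineage, the rules that leave clusters unnamed and 6 of the alternatives were chosen after seeing the data, and the members and lists were chosen with earlier results of these data known.

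Counts were summed per class. Intervals are exact Poisson at 95%, ratios carry exact conditional binomial intervals, and a side with no count was read at 3 counts. In each comparison up to 12 members past 2-fold by size were to be named, with those of highest level, and other pathway genes only past 4-fold. The ratio and interval code was tested on simulated data. Tools were Python 3.11.15, numpy 2.4.6, scipy 1.17.1, pandas 2.3.3, scikit-learn 1.9.0, leidenalg 0.10.2, igraph 0.11.9, and R 4.3.3 with edgeR 4.0.16 for TMM factors alone. Alternatives covered filters, scaling, clustering and reference cells. Some genes that lead clusters are not reported here.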

Additional observations from a re-analysis of the deposited data

Results flagged for a closer look

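The muscle barcodes left out for more than 10% mitochondrial counts (3301 of 5547) enter no comparison, and 10 of the 35 members were higher in them than in the 2243 barcodes at or under the limit, none by 2-fold. Counted without mitochondrial and rRNA-like genes, Aldoa was 650 CPM over the limit and 498 at or under it, Ndrg1 263 and 228, Pfkfb3 183 and 128, P4ha1 141 and 126, and Egln1 118 and 84.6. Hk1 was 101 and 78.1 CPM, Mxi1 96.7 and 75.2, Kdm3a 90.4 and 75.3, P4ha2 80.9 and 65.4, and Slc2a3 25.6 and 22. The other members were lower over the limit, among them Gapdh (316 against 550 CPM), Ldha (218 against 370) and Pkm (175 against 279). The myofibre actin Acta1 was 776 CPM over the limit and 551 at or under it, and its part in these levels was not tested.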

How the results depend on the processing

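Depth limits the small classes most (46 to 61 cells for the muscle neutrophil-like, monocyte-like and macrophage-like cells, 63 lung endothelial-like cells), and 1 library per tissue gives no replicate to leave out. No paired analysis was possible because each tissue had 1 library. Of 310 values of 18 counts under 19 alternatives, 250 stayed within 1.5 times the main count and 60 did not. Where no cause is named, the cause was not tested. TMM scaling gave 1 higher in lung monocyte-like cells (from 4), 17 lower (from 11) and 1 higher (from 3) in muscle than lung neutrophil-like cells, 1 higher in macrophage-like cells (from 2) and 4 lower in endothelial-like cells (from 9). Against the median of the other classes in place of their sum, the members higher were 19 in lung neutrophil-like, 18 in monocyte-like, 15 in macrophage-like, 10 in alveolar macrophage-like, 4 in T-like, 10 in epithelial-like and 4 in muscle fibroblast-like cells. Centring on all genes gave 24 higher in neutrophil-like, 6 in macrophage-like and 2 in alveolar macrophage-like cells, and 1 higher in muscle than lung macrophage-like cells. At Leiden resolution 0.5, 12 were higher in lung monocyte-like, 0 in macrophage-like and 2 in alveolar macrophage-like cells, and in muscle than lung cDC2-like cells 8 were lower and 0 higher. At resolution 2, the counts were 6 in neutrophil-like, 9 in monocyte-like and 1 in macrophage-like cells, with 3 lower and 0 higher between cDC2-like cells and 1 higher between neutrophil-like cells. With 1 level of clustering they were 12 in monocyte-like and 0 in macrophage-like cells, and between muscle and lung 25 lower in monocyte-like, 12 lower and 1 higher in macrophage-like, 1 higher in neutrophil-like and 0 higher in cDC2-like cells. A mitochondrial limit of 20% gave 1 in lung macrophage-like, 2 in alveolar macrophage-like, and 8 lower and 0 higher between cDC2-like cells. A minimum of 1000 UMIs gave 1 in lung macrophage-like, 8 lower and 0 higher between cDC2-like, 1 higher between neutrophil-like and 1 higher between macrophage-like cells. Keeping doublets gave 1, 8 lower and 1 higher for lung macrophage-like, cDC2-like and neutrophil-like cells. Letting members into the variable genes gave 9 lower between cDC2-like and 1 higher between monocyte-like cells. At least 50 counts left 1 higher between macrophage-like and 0 between cDC2-like cells. Without clusters under 1000 UMIs 1 was higher between neutrophil-like and 1 between macrophage-like cells, and without those far shallower than their library 1 between neutrophil-like cells. Without Malat1-rich clusters 0 were higher in lung monocyte-like cells, and 8 were lower between monocyte-like and 4 between endothelial-like cells. With muscle cells at or under the median myofibre share 5 were lower between endothelial-like cells. Within the shared cluster 3 were lower between neutrophil-like cells, and 1 was higher between monocyte-like and 1 between macrophage-like cells. Totals without mitochondrial and rRNA-like genes, keeping names that leading genes oppose, and no count minimum moved none of the 18. No value could be had for muscle against lung monocyte-like cells at resolution 0.5, for the endothelial-like comparison without clusters under 1000 UMIs, or where an alternative applies to other comparisons only.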
